A study of Mus musculus with 180 samples.

Results

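The 9 trophectoderm genes described here were Tfap2a, Tfap2c, Gata2, Gata3, Cdx2, Krt7, Krt8, Krt18 and Krt19, out of 31053 genes in the feature list of the single-cell library, which was used to turn symbols into gene identifiers. They were followed in mouse embryonic stem cells (ESCs), in epiblast-like cells (EpiLCs) and in embryoid bodies (EBs). Lines D29, D55 and DAC203 of the strain labelled D2 were set against lines B41, B44 and B51 of the strain labelled B6, the usual short names of the DBA/2J and C57BL/6J inbred mice. B6D2F1/J hybrids gave F1 lines F116, F117 and F124, and a panel of 33 BXD recombinant inbred strains, made from the same parents, gave 1 line each. The labels give no genotype beyond the strain and no agent. All ESC lines were kept in naive conditions, and EpiLCs were made from ESC lines of the same names. EBs were spontaneous: cells spent 48 h as EpiLCs, 48 h as aggregates of 750 cells and 48 h in rotation, and their labels call the pool a B6 and D2 mixture. Replicates are separate lines of a strain, so p-values in bulk data measure the spread between lines.

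The trophectoderm is the outer epithelium of the blastocyst and gives rise to the placenta. Its transcription factors (CDX2, GATA3 and the AP-2 factors TFAP2A and TFAP2C) act with Hippo pathway signals to switch on epithelial genes, among them the simple-epithelium keratins KRT8 and KRT18, which pair into filaments, and KRT7 and KRT19. In ESCs these genes are held low, with CDX2 and the pluripotency factor POU5F1 opposing each other. None of them is specific to trophectoderm: GATA2 also works in blood and endothelium, CDX2 in posterior mesoderm and gut, and the keratins in endoderm and other epithelia.

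All 9 members were measured in ESC RNA and 7 in EpiLC RNA, where Tfap2a and Cdx2 were not analysed here. Positions are those of mm10 in the GENCODE vM21 annotation. Krt7 (chr15:101411043-101430313, plus strand), Krt8 (chr15:101996698-102004482, minus) and Krt18 (chr15:102028180-102032027, plus) lie on the same chromosome, and Krt8 and Krt18 are neighbours that start on opposite strands. Krt19 lies at chr11:100140810-100148665 (minus), Tfap2a at chr13:40715302-40738376 (minus), Tfap2c at chr2:172549593-172558622 (plus), Gata3 at chr2:9857078-9890034 (minus), Gata2 at chr6:88193891-88207032 (plus) and Cdx2 at chr5:147300805-147307270 (minus).

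Sequences of 3 places the results turn on are given here, in mm10 and 5′ to 3′ on the strand named. The first is the centre of a region inside Krt7 that was lower in D2, which lies in an intron of both coding transcripts and in an exon of a retained-intron transcript, at chr15:101414947-101415246 on the plus strand. The second is the RefSeq promoter of Krt7 at chr15:101412153-101412402 on the plus strand, and the third that of Cdx2 at chr5:147307250-147307499 on the minus strand, where POU5F1 binding was measured. Capitals mark matches to the motifs searched on both strands, which were the POU octamer ATGCAAAT, the GATA motif AGATAA and the AP-2 motif GCCNNNGGC. RefSeq promoters of the table's GRCm38.p6 build were found for 7 of the 9 members.
Krt7 region: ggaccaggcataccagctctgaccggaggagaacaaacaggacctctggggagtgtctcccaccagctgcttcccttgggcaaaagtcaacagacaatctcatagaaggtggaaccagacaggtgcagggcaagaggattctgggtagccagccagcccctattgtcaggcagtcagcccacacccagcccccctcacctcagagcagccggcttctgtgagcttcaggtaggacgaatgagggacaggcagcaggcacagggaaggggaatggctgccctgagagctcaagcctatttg
Krt7 promoter: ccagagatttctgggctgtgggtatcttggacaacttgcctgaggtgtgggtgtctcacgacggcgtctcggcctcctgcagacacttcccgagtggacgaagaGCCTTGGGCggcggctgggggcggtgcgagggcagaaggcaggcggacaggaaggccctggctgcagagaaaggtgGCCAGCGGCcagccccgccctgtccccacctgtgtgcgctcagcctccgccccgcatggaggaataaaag
Cdx2 promoter: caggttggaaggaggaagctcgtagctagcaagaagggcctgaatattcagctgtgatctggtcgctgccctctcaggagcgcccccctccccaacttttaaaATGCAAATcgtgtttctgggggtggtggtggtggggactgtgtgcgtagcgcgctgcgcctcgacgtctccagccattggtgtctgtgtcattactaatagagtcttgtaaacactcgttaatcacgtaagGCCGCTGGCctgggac
The stretches are those the RefSeq table gives before its gene starts, and by GENCODE the last 21 bases of the Cdx2 stretch and the last 1 of the Krt7 stretch lie in an annotated UTR. The Cdx2 promoter held 1 octamer and 1 AP-2 match, the AP-2 match within those last bases, and the Krt7 promoter held 2 AP-2 matches. Among 32851 RefSeq promoters of the same length, 1.6% held an octamer, 9.99% a GATA and 13.7% an AP-2 match. The letters of these motifs were not present in the Krt7 region window. Over the central 300 bases of 112226 ESC open regions, the shares were 3.12%, 11.3% and 12.9%.

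In ESC RNA, the AP-2 factors moved in opposite directions. Tfap2a, which acts in trophectoderm, surface ectoderm and neural crest, had a normalized signal of 21.1, 26.5 and 16.03 in D2 lines D29, D55 and DAC203, against 1.57, 2.08 and 1.62 in B6 lines B41, B44 and B51. Every D2 line thus lay above every B6 line, and the log2 difference (D2 minus B6, of signal + 1) was 2.99 (SE 0.18, limma adjusted p = 4.4e-06), the 81st by size of 12694 genes tested. Tfap2c, which also acts in naive ESCs and germ cells, had a signal of 25.1, 25.1 and 35.2 in D29, D55 and DAC203, against 62.8, 41.5 and 36.4 in B41, B44 and B51. Its groups came close, with DAC203 just under B51, and the log2 difference was -0.68 (SE 0.20, limma adjusted p = 0.025). Without B41, D55 or D29 the difference was between -0.45 and -0.60 with an adjusted p of 0.072 to 0.096.

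The GATA factors also parted. Gata2 had a signal of 1.79, 1.97 and 3.92 in D29, D55 and DAC203, against 12.9, 7.22 and 10.1 in B41, B44 and B51. It fell by 1.65 on the log2 scale in D2 (SE 0.25, limma adjusted p = 0.0011). Gata3 had a signal of 2.00, 4.76 and 3.69 in the same D2 lines, against 1.76, 1.90 and 1.22 in the B6 lines, and rose in D2 by 0.73 (SE 0.24, limma adjusted p = 0.041). D29 lay close to the highest B6 line, and the call was lost on leaving out any of 5 of the 6 lines (adjusted p 0.067 to 0.14, D29 being the exception). Cdx2, the factor that sets trophectoderm fate, had a signal of 0.582, 0.348 and 0.0921 in D29, D55 and DAC203, against 0.0840, 0.139 and 0.108 in B41, B44 and B51. Its mean lay under the minimum of 0.5 used for the test, and with no minimum the log2 difference was 0.26 (SE 0.19, limma adjusted p = 0.33).

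The 4 keratins were lower in D2 ESCs, and their lines did not overlap. Krt19, which lacks a tail domain and is carried by many simple epithelia, had a signal of 3.83, 5.61 and 6.03 in D29, D55 and DAC203, against 23.3, 16.5 and 23.4 in B41, B44 and B51 (log2 difference -1.85, SE 0.18, limma adjusted p = 9.3e-05). Krt7 had a signal of 1.58, 2.13 and 1.198 in the D2 lines, against 9.86, 5.55 and 5.87 in the B6 lines (-1.59, SE 0.22, adjusted p = 0.00064). The filament partners differed less. Krt8 had a signal of 1.71, 2.75 and 5.02 in D29, D55 and DAC203, against 7.73, 6.89 and 7.30 in B41, B44 and B51 (-1.08, SE 0.25, limma adjusted p = 0.0096). Krt18 had a signal of 2.91, 4.53 and 6.68, against 9.21, 8.65 and 8.67 (-0.84, SE 0.22, adjusted p = 0.015), and without B41 its adjusted p was 0.055. For both partners D29 was lowest and DAC203 highest of the D2 lines. In bulk RNA, fewer cells that carry a gene and less RNA per cell cannot be told apart.

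Of the 8 members tested in ESCs, 2 were higher and 6 lower in D2, where 17.3% of all tested genes were higher and 20.3% lower (37.6% in either direction). All 8 had lines that did not overlap between strains, as did 51.4% of all tested genes. The median log2 difference over all tested genes was -0.04. Feeder fibroblast markers summed to a signal of 938 to 1291 in D2 lines and 832 to 1110 in B6 lines, and 0 of 7 passed the test. None of the 4 pluripotency markers was at 0 in any line, and their sums were 2394 to 2566 in D2 lines and 2138 to 2265 in B6 lines. Of the 4, 1 passed the test, Nanog, higher in D2 at 837 in D2 and 684 in B6 lines (log2 difference 0.29, limma adjusted p = 0.021). The 1 definitive endoderm marker measured, Trh, was lower in D2, with means of 20.5 in D2 and 70.6 in B6 lines (-1.87, limma adjusted p = 0.013), and 0 of 3 primitive endoderm markers passed. The part of these cells or states in the member differences was not tested.

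**Figure D1:**
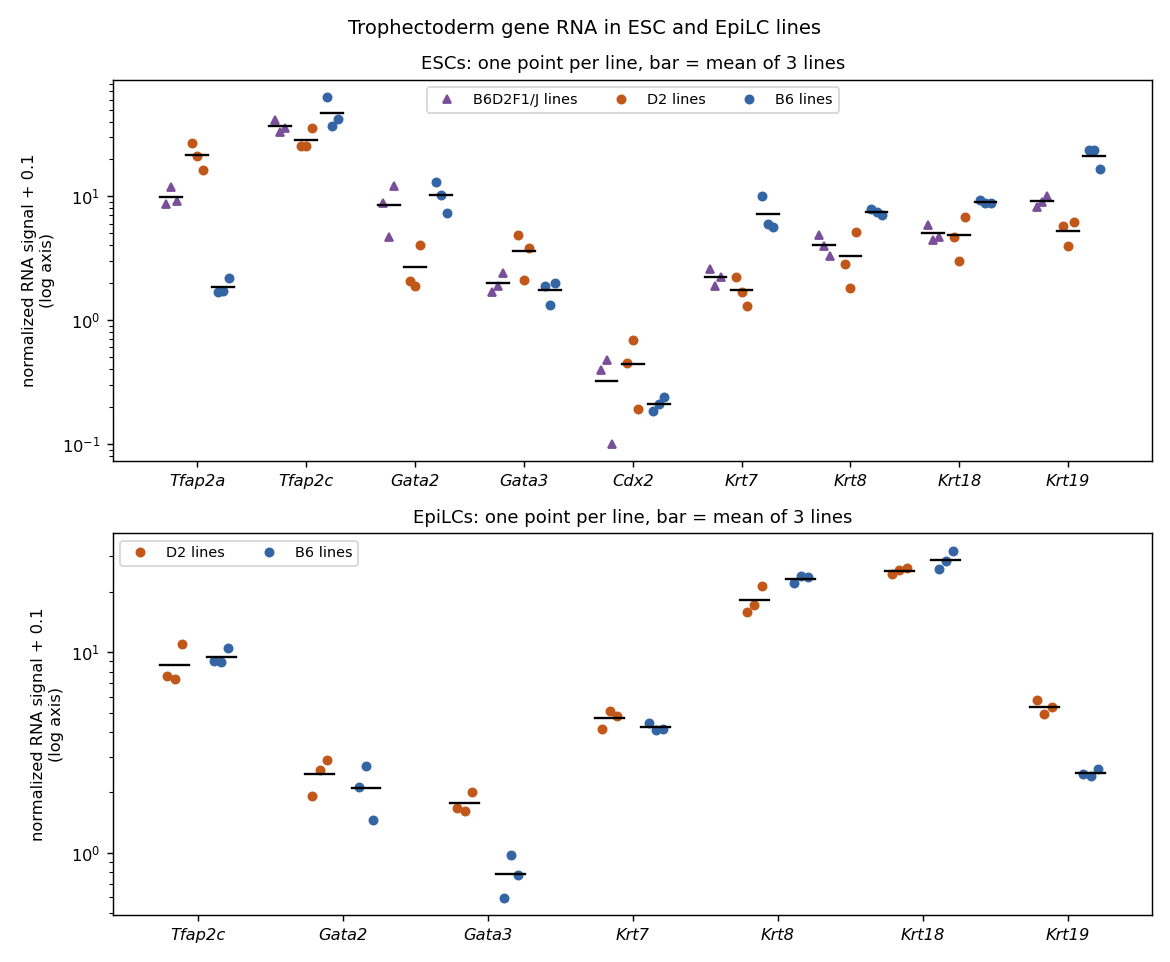
Normalized RNA signal (plus 0.1, log axis) of each trophectoderm gene, 1 point per line, with bars at the mean of 3 lines; B6D2F1/J lines are shown in ESCs beside the D2 and B6 lines. In ESCs Tfap2a was at 16.03 or more in D2 lines and at 2.08 or less in B6 lines, and all 4 keratins were lower in D2 lines, whereas in EpiLCs Krt19 was at 4.79 to 5.66 in D2 lines and at 2.31 to 2.51 in B6 lines.

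In EpiLCs the log2 differences of signal + 1 were smaller in size for all 7 members measured. With a pseudocount of 0.1, that of Gata3 was instead larger in EpiLCs than in ESCs, by 0.20. The differences of Krt19, Gata2 (0.18) and Krt7 (0.12) had the other sign. Of these 3, Krt19 passed the test in EpiLCs. Krt19 had a signal of 4.79, 5.66 and 5.21 in D2 lines D29, D55 and DAC203, against 2.36, 2.51 and 2.31 in B6 lines B41, B44 and B51, a log2 difference of 0.87 (SE 0.12, limma adjusted p = 5.6e-05). Gata3 was again higher in D2, with a signal of 1.52, 1.57 and 1.91, against 0.498, 0.676 and 0.878 in B6 (0.67, SE 0.15, adjusted p = 0.0021). Krt8 was lower in D2, with a signal of 17.1, 15.7 and 21.3, against 22.1, 23.5 and 23.8 in B6 (-0.35, SE 0.11, limma adjusted p = 0.015), and its adjusted p was 0.053 without D29 and 0.082 without D55. Those 3 members had lines that did not overlap, out of 7, against 63.7% of all genes tested. The share called was 57.5% of 12692 genes (28.5% higher), so calls on 3 of 7 members lay below the background.

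For the other 4 members the EpiLC lines overlapped and the test was not passed. Tfap2c had a signal of 7.24, 7.51 and 10.9 in D29, D55 and DAC203, against 8.96, 10.4 and 8.78 in B41, B44 and B51 (log2 difference -0.14, SE 0.14, limma adjusted p = 0.43). Gata2 had a signal of 1.81 to 2.80 in D2 lines, against 1.35 to 2.60 in B6 lines (0.18, SE 0.17, adjusted p = 0.40). Krt7 was at 4.05 to 5.01 in D2 lines and 3.99 to 4.35 in B6 lines (0.12, SE 0.12, limma adjusted p = 0.38). Krt18 was at 24.4 to 26.2 in D2 lines and 25.96 to 31.9 in B6 lines (-0.17, SE 0.09, limma adjusted p = 0.14).

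The change of the strain difference between the states was tested directly, over 11745 genes, of which 36.0% were called. The ESC and EpiLC tables were scaled apart by the authors, so only strain differences, and no levels, were set across them. The log2 difference between strains in EpiLCs, less the same difference in ESCs, was 2.72 for Krt19 (SE 0.22, limma adjusted p = 4.8e-07), 1.83 for Gata2 (SE 0.34, adjusted p = 0.00080) and 1.72 for Krt7 (SE 0.26, adjusted p = 0.00012). Krt18 gave 0.68 (SE 0.25, limma adjusted p = 0.044), and with the cell line as a block, since both states came from the same lines, its adjusted p was 0.052; leaving out any 1 of 5 of the 6 lines also took it past 0.05, up to 0.17. Krt8 gave 0.72 (SE 0.30, adjusted p = 0.077), and 0.031 with the cell line as a block. Tfap2c (0.54) and Gata3 (-0.06) were not called, with limma adjusted p of 0.15 and 0.88.

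EpiLC libraries also differed in markers of other cells. Feeder markers summed to a signal of 58.9 to 105 in D2 EpiLC lines and 42.1 to 56.8 in B6 lines, with 2 of 5 higher in D2, 0 lower, and none at 0 in any line. The primitive endoderm markers measured summed to 17.9 to 44.7 in D2 lines and 13.4 to 15.1 in B6 lines, with 2 of 3 higher and none at 0. Of 4 pluripotency markers, 3 were higher and 1 lower in D2, and their sums were 882 to 1021 in D2 lines and 740 to 790 in B6 lines. Trh was lower in D2 here as well, at 43.7 in D2 and 54.5 in B6 lines (log2 difference -0.31, limma adjusted p = 0.039). The part of these cells or states in the differences of Krt19 and Gata3 was not tested.

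Other genes of the same programmes were read from lists. Of 20 other trophoblast genes tested in ESCs, 4 were higher and 9 lower in D2, with a median log2 difference of -0.21. Bmp4, a signal that drives trophoblast fate, averaged 9.24 ± 2.69 in D2 lines and 1.88 ± 0.42 in B6 lines (SD, n = 3 each, log2 difference 1.80, limma adjusted p = 0.00029), and Esx1, a placental homeobox gene, averaged 1.27 ± 0.70 in D2 and 5.69 ± 1.74 in B6 (-1.57, adjusted p = 0.0013). Peg10 was the next higher (0.83) and Phlda2 the next lower (-1.15). In EpiLCs 10 of 23 were higher and 2 lower, with a median of 0.40. Hand1, a factor of trophoblast giant cells and of mesoderm, averaged 3.28 ± 0.47 in D2 and 0.755 ± 0.206 in B6 EpiLC lines (1.29, limma adjusted p = 1.7e-05), and Phlda2, an imprinted placental growth gene, averaged 16.3 ± 1.0 in D2 and 46.9 ± 2.3 in B6 (-1.47, adjusted p = 5.5e-08). The next were Plet1 (1.13) and the glucose transporter gene Slc2a1 (-0.68). Eomes, which keeps trophoblast stem cells and was picked out after its values were seen, had a log2 difference of -0.72 in ESCs and 0.91 in EpiLCs, both past the limma threshold (adjusted p = 0.0085 and 0.00021).

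Relatives and structural partners were listed too. Of 4 relatives of the members measured in ESCs, the keratins Krt17 and Krt42 were lower in D2 (log2 differences -0.89 and -0.94) and 0 were higher. In EpiLCs 2 of 4, Gata4 and Cdx4, were higher (0.88 and 0.54) and 0 lower. Epithelial junction genes gave 3 higher and 9 lower of 15 in ESCs, and the widest fall in that list was of Esrp1, a splicing factor of epithelia, at 0.765 ± 0.181 in D2 against 7.14 ± 2.64 in B6 (-2.16, limma adjusted p = 0.00017). Grhl2, a factor that drives epithelial genes, went the other way in that list, with 7.64 ± 1.70 in D2 and 2.18 ± 0.39 in B6 (1.43, adjusted p = 0.00039). The tight junction genes Ocln (0.80) and Cldn7 (-1.62) came next. In EpiLCs 4 of the 15 were higher and 5 lower, with Grhl2 at 0.92, the plakoglobin gene Jup at 0.68, Ocln at -0.50 and Cldn7 at -1.08. Hippo pathway and partner genes gave 1 higher (Lats2, 0.47) and 2 lower (Tcf7l2, -0.66, and Tead2, -0.45) of 12 in ESCs. In EpiLCs 1 (Amot, 0.53) was higher and 8 of 12 lower, with Cyr61, a target of YAP, at -1.23 (limma adjusted p = 3.6e-07) and the kinase gene Lats2 at -0.92. These shares stand beside 37.6% called in ESCs and 57.5% in EpiLCs over all genes.

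F1 ESCs were read in a table of their own with the parents in it. None of the 8 members tested differed from the mean of both parents on the log2 scale, where 3.29% of 12700 genes did. Tfap2a had a signal of 8.49, 11.8 and 9.08 in F1 lines F116, F117 and F124, against 16.1 to 26.6 in D2 lines and 1.57 to 2.09 in B6 lines. The F1 lines lay apart from both parents, at a log2 difference of -1.03 from D2 (SE 0.18, limma adjusted p = 0.0036) and 1.96 from B6 (SE 0.18, adjusted p = 4.2e-05). Their distance from the log2 mean of the parents was 0.46 (SE 0.16, adjusted p = 0.13), and set against the plain mean of the 2 levels it was -0.23.

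The F1 keratins lay nearer D2 on average, though none differed from the log2 mean of the parents by the test. Their distances from it were -0.54 for Krt7, -0.23 for Krt8, -0.33 for Krt18 and -0.22 for Krt19 (limma adjusted p = 0.13, 0.58, 0.33 and 0.44). Krt7 was at 2.47, 1.77 and 2.14 in F116, F117 and F124, within or just above the 1.2003 to 2.13 of D2 lines and below the 5.56 to 9.88 of B6 lines (F1 minus B6 -1.34, SE 0.21, limma adjusted p = 0.0015; F1 minus D2 0.25, SE 0.21, adjusted p = 0.44). Krt18 was also lower than in B6 (-0.75, SE 0.21, adjusted p = 0.029), and Krt8 missed the threshold (-0.77, SE 0.24, limma adjusted p = 0.051). Krt19 lay between the parents, with 8.12, 8.87 and 9.86 in F1 lines, against 3.84 to 6.05 in D2 lines and 16.6 to 23.5 in B6 lines. It differed from both, at -1.14 from B6 (SE 0.17, limma adjusted p = 0.0012) and 0.70 from D2 (SE 0.17, adjusted p = 0.019). Gata2 lay nearer B6, with 8.62, 4.57 and 12.05 in F1 lines, against 1.79 to 3.92 in D2 lines and 7.23 to 12.97 in B6 lines (F1 minus D2 1.36, SE 0.33, limma adjusted p = 0.020; F1 minus B6 -0.29, SE 0.33, adjusted p = 0.58). From the log2 mean of the parents, Gata2 lay at 0.54 (SE 0.28, limma adjusted p = 0.32), which did not pass. Over all genes 17.9% differed between F1 and B6 and 15.7% between F1 and D2.

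Chromatin was read as signal over regions in the same lines, with ATAC-seq for open chromatin in both states and ChIP-seq in ESCs for P300, a coactivator at enhancers, POU5F1, and TRIM28, a corepressor. Near Tfap2a, open chromatin differed between the strains most at the 3′ end, while its 3 promoter regions did not pass the test. The region chr13:40714258-40715348, most of which lies past the 3′ end of the gene, had an ATAC signal of 10.48, 11.2 and 10.9 in D2 lines D29, D55 and DAC203, against 5.12, 5.63 and 5.51 in B6 lines B41, B44 and B51. The log2 difference was 0.99 (SE 0.09, limma adjusted p = 8.3e-08). P300 at chr13:40713885-40715540 was at 46.6 and 35.9 in D29 and D55, against 21.99 and 23.1 in B41 and B51 (0.83, SE 0.20, adjusted p = 0.0016). POU5F1 at chr13:40713920-40715504 was at 41.5 and 43.1 in D29 and D55, against 26.8 and 24.4 in B41 and B51 (0.70, SE 0.17, limma adjusted p = 0.0013). All 3 assays were thus higher at that place in each D2 line measured, which for P300 and POU5F1 were D29 and D55 alone. TRIM28 there was at 2.82 to 3.34 in D2 lines and 1.43 to 2.64 in B6 lines (0.58, SE 0.28, limma adjusted p = 0.096).

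Within Tfap2a itself, 2 further ATAC regions were higher in D2, at chr13:40716740-40718392 (log2 difference 0.32, limma adjusted p = 0.0021) and chr13:40722243-40723919 (0.23, adjusted p = 0.019; that region also overlaps Gm47061). TRIM28 was higher in D2 over the upstream promoter at chr13:40737626-40742863, which also overlaps Gm47067, with 20.9, 22.6 and 24.8 in D29, D55 and DAC203 and 13.1, 11.8 and 15.8 in B41, B44 and B51 (0.75, SE 0.13, limma adjusted p = 5.5e-06). The D55 TRIM28 library held 17092029 reads in regions and the others 5634327 to 6872995. In EpiLCs, by contrast, the ATAC promoter region chr13:40727977-40735335, which also overlaps Gm26688, was lower in D2, with 55.2, 49.7 and 47.5 in D29, D55 and DAC203 and 81.5, 80.8 and 74.8 in B41, B44 and B51 (-0.64, SE 0.05, limma adjusted p = 1.1e-15).

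**Figure D2:**
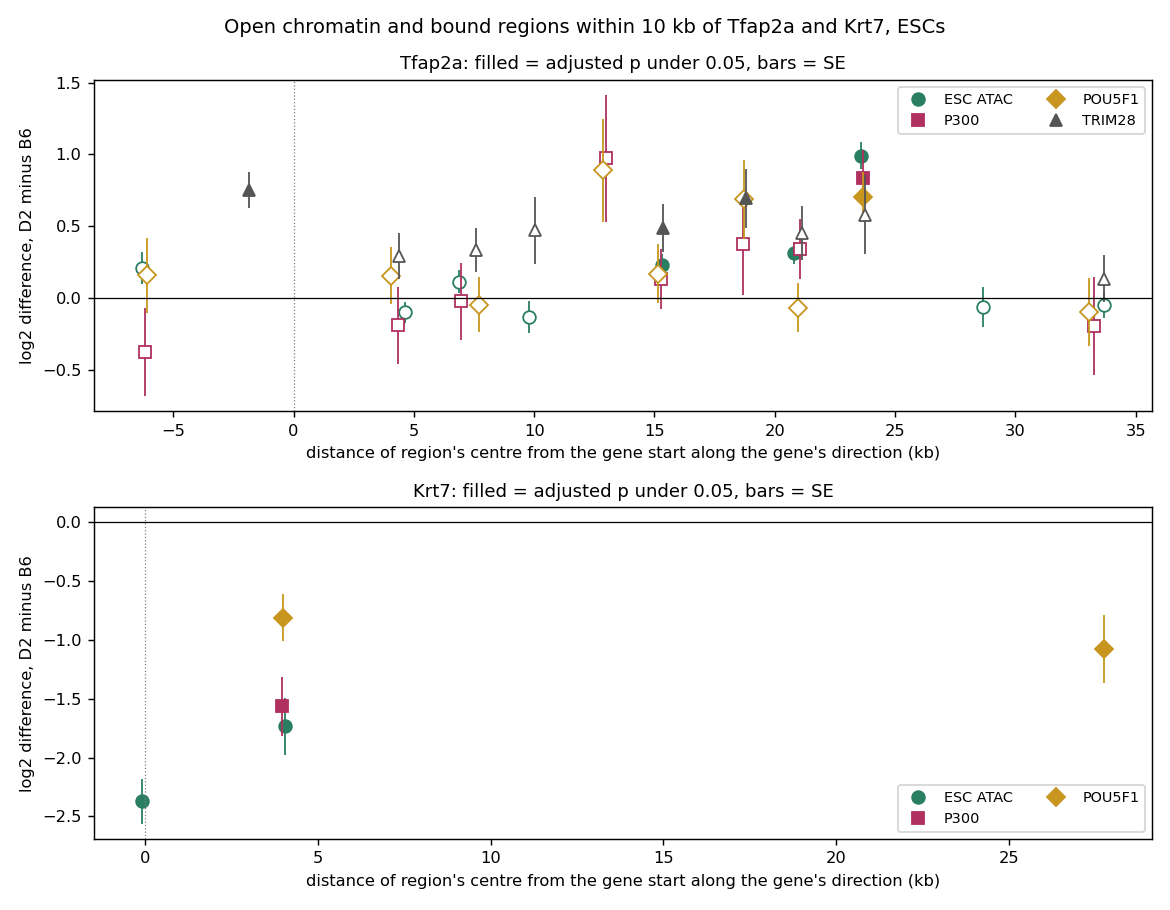
Log2 difference (D2 minus B6, bars are SE) of each region within 10 kb of Tfap2a and Krt7 in ESCs against the distance in kb of the region's centre from the gene start. At Tfap2a, ATAC, P300 and POU5F1 were higher in D2 together past the 3′ end (0.99, 0.83 and 0.70), and at Krt7 every region called was lower in D2, down to -2.37 for ATAC at the start.

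At Krt7, all ATAC, P300 and POU5F1 regions listed within 10 kb in ESCs were lower in D2. The region at the gene start, chr15:101410725-101411179, which also overlaps Gm671, had an ATAC signal of 0.828, 0.7099 and 0.918 in D29, D55 and DAC203, against 5.07, 3.57 and 5.51 in B41, B44 and B51 (log2 difference -2.37, SE 0.19, limma adjusted p = 7.3e-09). The inner region chr15:101414670-101415524 had 1.80, 2.40 and 4.02 in the D2 lines, against 10.9, 7.82 and 8.20 in the B6 lines (-1.73, SE 0.24, adjusted p = 0.00017). At that place P300 (chr15:101414162-101415859) was at 6.995 and 13.5 in D29 and D55, against 32.2 and 29.6 in B41 and B51 (-1.56, SE 0.25, limma adjusted p = 2.5e-06). POU5F1 (chr15:101414184-101415865) was at 14.3 and 20.998 in D29 and D55, against 32.5 and 29.8 in B41 and B51 (-0.81, SE 0.20, adjusted p = 0.0014). The lowest D2 line was D29 in all 3 assays at that inner region. In EpiLCs, where Krt7 RNA did not pass the test, ATAC over this place (chr15:101414923-101415631) was at 2.21 ± 0.16 in D2 and 3.19 ± 0.45 in B6 lines (-0.50, SE 0.15, limma adjusted p = 0.0029, n = 3 each), and over the promoter printed above at 7.76 ± 0.61 in D2 and 10.1 ± 0.1 in B6 lines (-0.38, SE 0.08, adjusted p = 8.1e-05).

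The other keratins and Tfap2c had lower regions as well. ATAC at the Krt19 promoter (chr11:100144782-100146526) was at 5.60, 5.68 and 7.96 in D29, D55 and DAC203, against 13.4, 11.2 and 13.02 in B41, B44 and B51 (-0.97, SE 0.12, limma adjusted p = 5.0e-06). At the Krt8 promoter (chr15:102002719-102004878, which also overlaps Gm36026) it was at 9.70, 10.1 and 11.3, against 18.96, 18.04 and 17.97 in the same lines (-0.82, SE 0.08, adjusted p = 1.0e-07). Upstream of Tfap2c (chr2:172545506-172548224) it was at 11.5, 12.6 and 14.95, against 19.98, 19.1 and 18.2 (-0.56, SE 0.09, limma adjusted p = 4.2e-05). P300 just past the Tfap2c gene (chr2:172558608-172561546) was at 16.7 and 16.5 in D29 and D55, against 31.6 and 33.8 in B41 and B51 (-0.94, SE 0.21, adjusted p = 0.00086). The Krt19 promoter was lower in D2 EpiLCs too, with 18.3 ± 1.49 in D2 and 24.002 ± 1.19 in B6 lines (SD, n = 3 each, -0.39, SE 0.06, limma adjusted p = 3.9e-07), while Krt19 RNA was higher there. At the Cdx2 promoter with the octamer, POU5F1 (chr5:147303591-147308029) was at 93.5 and 81.4 in D29 and D55, against 90.4 and 98.1 in B41 and B51 (-0.11, SE 0.12, limma adjusted p = 0.63).

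Counted over all 9 genes, 0 of 14 promoter regions in ESC ATAC were higher in D2 and 7 lower, and within 10 kb 3 of 42 were higher and 18 lower. Over all 112226 regions 46.9% were called, 22.2% higher and 24.7% lower, and over 21531 promoter regions 27.7% were higher and 16.4% lower. In EpiLCs 0 of 14 promoter regions were higher and 14 lower, and within 10 kb 1 of 40 was higher and 32 lower. The background there was 58.2% called, 25.6% higher and 32.6% lower, of 100415 regions, and 11.9% higher and 55.3% lower of 21227 promoter regions. The 1 higher region lay past Gata2 (chr6:88215246-88216511), with 4.21, 4.72 and 4.85 in D29, D55 and DAC203 and 3.21, 3.12 and 3.05 in B41, B44 and B51 (0.54, limma adjusted p = 0.00014). For TRIM28, 7 of 36 regions within 10 kb were higher and 1 lower, beside 38.1% of all regions called (19.7% higher and 18.4% lower). P300 gave 1 higher and 3 lower of 26 (background 11.3% called, 6.17% higher and 5.16% lower), and POU5F1 gave 1 higher and 2 lower of 29 (background 10.8% called, 6.48% higher and 4.36% lower). For P300 and POU5F1, with 2 lines a strain, small p-values rest on the spread pooled over regions: without B41 or B51, 1 of the 26 P300 regions, that of Krt7, was called, and without D55, 8. The POU5F1 calls were lost without D55 at Tfap2a and without D29 at Krt7.

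Across 33 BXD lines, each a single library, most members spread widely in ESCs. Tfap2a ran between 2.75 (BXD43) and 35.9 (BXD45) with a median of 6.68, and 31 lines fell between the lowest and highest parental line. By the mean of the parental log2 levels, 16 BXD lines were nearer D2 and 17 nearer B6. Krt7 was nearer D2 in 31 lines, with a lowest, median and highest signal of 0.453, 1.57 and 6.39, against 1.198 to 2.13 in D2 and 5.55 to 9.86 in B6 lines. The ATAC region at its start went the same way: the BXD lines ran between 0.244 and 2.92 with a median of 0.983, beside 0.7099 to 0.918 in D2 lines and 3.57 to 5.51 in B6 lines, so no BXD line reached a B6 line. The inner Krt7 region ran between 0.5684 and 10.05 with a median of 2.43. The Tfap2a 3′ region ran between 3.73 and 11.9 with a median of 6.72, beside 10.48 to 11.2 in D2 lines and 5.12 to 5.63 in B6 lines.

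Among the members, Cdx2 and Gata3 lay outside the parental range most often, and how often other genes do so was not measured. Cdx2 had a lowest, median and highest ESC signal of 0, 1.41 and 7.35 over BXD lines, and 22 of them lay above all 6 parental lines. Gata3 ran between 0.522 (BXD65) and 30.6 (BXD74) with a median of 2.79, with 12 lines above and 5 below all parental lines. BXD74 was highest for Cdx2 also, and BXD65 was highest for Tfap2c (98.3), Gata2 (19.5), Krt7 (6.39) and Krt19 (25.5). Krt8 (1.41 to 12.8, median 4.71), Krt18 (1.79 to 13.9, median 5.74) and Krt19 (2.68 to 25.5, median 7.14) had 26 or 27 lines within the parental range. Tfap2c ran between 6.06 and 98.3 with a median of 33.4, with 4 lines above and 7 below all parental lines, and Gata2 between 1.68 and 19.5 with a median of 4.83.

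In EpiLCs more than 15 of the 33 BXD lines lay above all parental lines for Krt7, Krt8, Krt18 and Tfap2c, but not for Krt19. Krt18 had a lowest, median and highest signal of 10.4, 38.5 and 106, with 22 lines above all parental lines, and Krt8 of 12.5, 26.4 and 89.4, with 21 above. Tfap2c (4.14, 11.3 and 38.9) and Krt7 (2.03, 5.30 and 15.4) had 17 lines above. Lines below all parents numbered 9 for Krt7, 5 for Krt8, 4 for Krt18 and 5 for Tfap2c. Krt19 had 4 lines above, 4 below and 25 within the parental range. BXD84 was highest for Tfap2c, Krt8 and Krt19 (16.7), and BXD64 was lowest for Krt7, Krt18 and Krt19 (1.71). Gata2 ran between 0.285 and 9.82 (median 2.01) and Gata3 between 0.196 and 6.58 (median 1.11). How often BXD lines lie outside the parental range for other genes was not measured in EpiLCs either. The labels give no batch for BXD libraries, and a batch that parts them from the parental libraries was not tested.

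**Figure D3:**
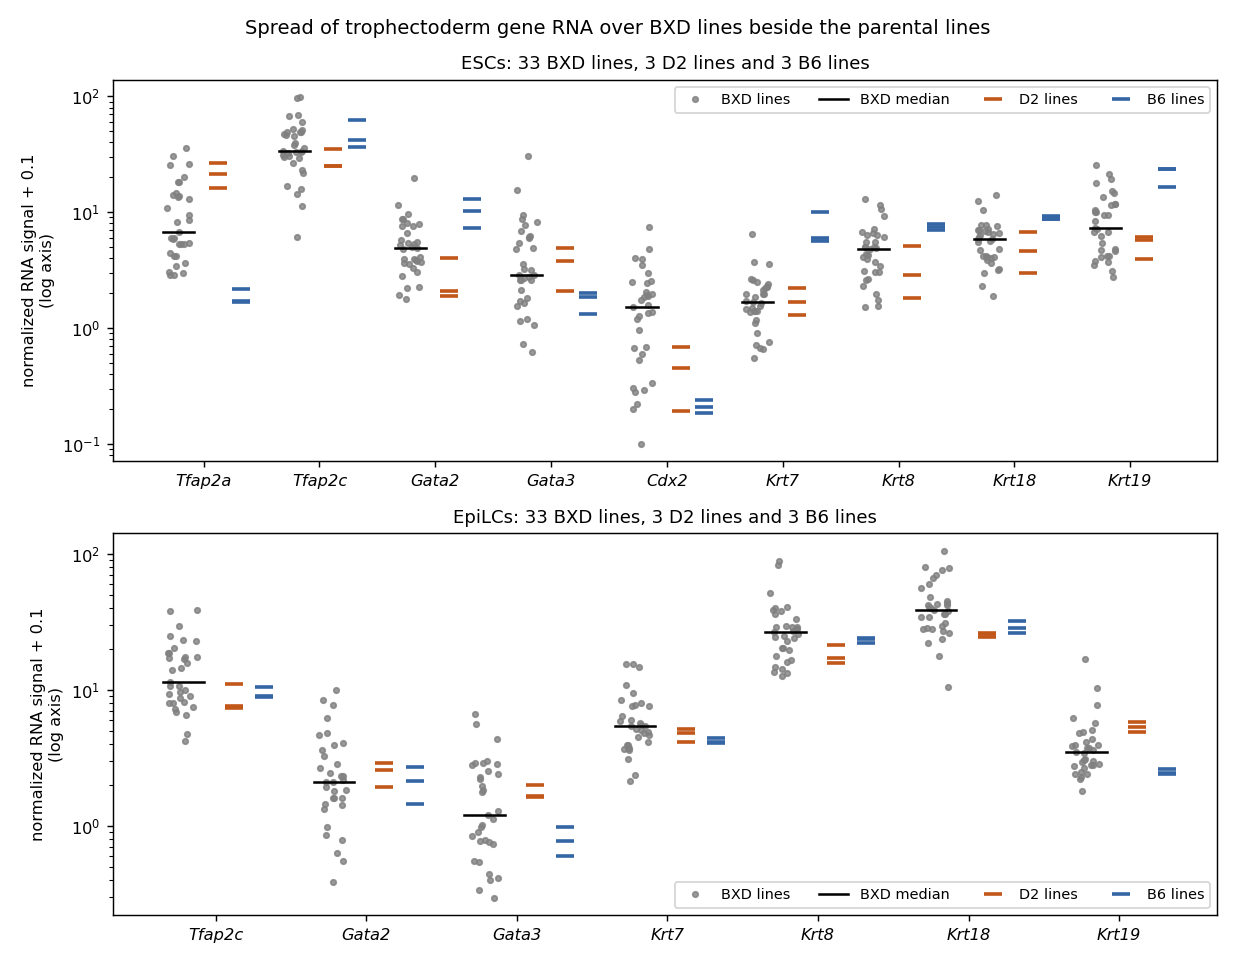
Normalized RNA signal (plus 0.1, log axis) of each trophectoderm gene in 33 BXD lines (grey points, bar at the median) beside 3 D2 and 3 B6 lines, in ESCs and EpiLCs. BXD ESC lines of Krt7 crowd at the D2 level, with a median of 1.57, and 22 BXD ESC lines of Cdx2 and 22 BXD EpiLC lines of Krt18 lie above all parental lines.

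Across the BXD lines in ESCs, 5 of the 6 pairs of keratins passed the test of correlation, and so did Gata3 with Cdx2. Of 36 pairs of members, 10 passed an adjusted p under 0.05 by permutation for both Pearson's r and Spearman's rho. Krt18 and Krt19 had r = 0.72 and rho = 0.71 (adjusted permutation p = 0.00018 and 0.00036, 33 lines). Without the 2 lines farthest from the median of the gene named first, Krt18, r was 0.70. The 2 lines were chosen in that way for each pair, and lines far out for the other gene were kept. Krt7 with Krt19 had r = 0.71 and rho = 0.66 (r = 0.61 without the 2 lines), Krt8 with Krt19 r = 0.66 and rho = 0.67, and Krt8 with Krt18 r = 0.65 and rho = 0.63. Krt7 with Krt18 did not pass, at r = 0.55 and rho = 0.40 (adjusted permutation p = 0.0043 and 0.061), and r = 0.48 without the 2 lines. Gata3 and Cdx2 had r = 0.75 and rho = 0.71 (adjusted permutation p = 0.00018 and 0.00036), and r = 0.64 without the 2 farthest lines. Tfap2a went with Gata3 (r = 0.59, rho = 0.60) and Tfap2c with Gata2 (r = 0.50, rho = 0.49). Cdx2 went against Krt7 (r = -0.45, rho = -0.43) and Krt19 (r = -0.51, rho = -0.43), both with an adjusted permutation p of 0.048 for rho. Pairs of members share their library, and the read depth behind them is unknown. How often pairs of other genes pass across these lines was not measured.

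In EpiLCs 14 of 21 pairs passed, and the 14 were positive, again with no share over other gene pairs measured. Tfap2c and Gata3 had r = 0.86 and rho = 0.82 (adjusted permutation p = 4.2e-05 for both, 33 lines), and r = 0.80 without the 2 farthest lines. Gata3 with Krt8 had r = 0.80 and rho = 0.81, Krt8 with Krt19 r = 0.79 and rho = 0.67, and Krt7 with Krt18 r = 0.78 and rho = 0.82. Gata2 was in none of the 14 pairs. Pluripotency markers summed in the same libraries had r = 0.63 with Krt18, 0.50 with Krt7 and -0.51 with Gata2, and primitive endoderm markers 0.49 with Gata2. Feeder markers had r between -0.23 and 0.21 with the EpiLC members, and in ESCs between -0.43 (Tfap2c) and 0.38 (Krt8). In ESCs the pluripotency sum had r = -0.41 with Krt18, -0.38 with Krt19, -0.32 with Krt8 and 0.39 with Tfap2c, and the primitive endoderm sum 0.40 with Krt8. The part of these cells or states in the pairs was not tested.

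**Figure D4:**
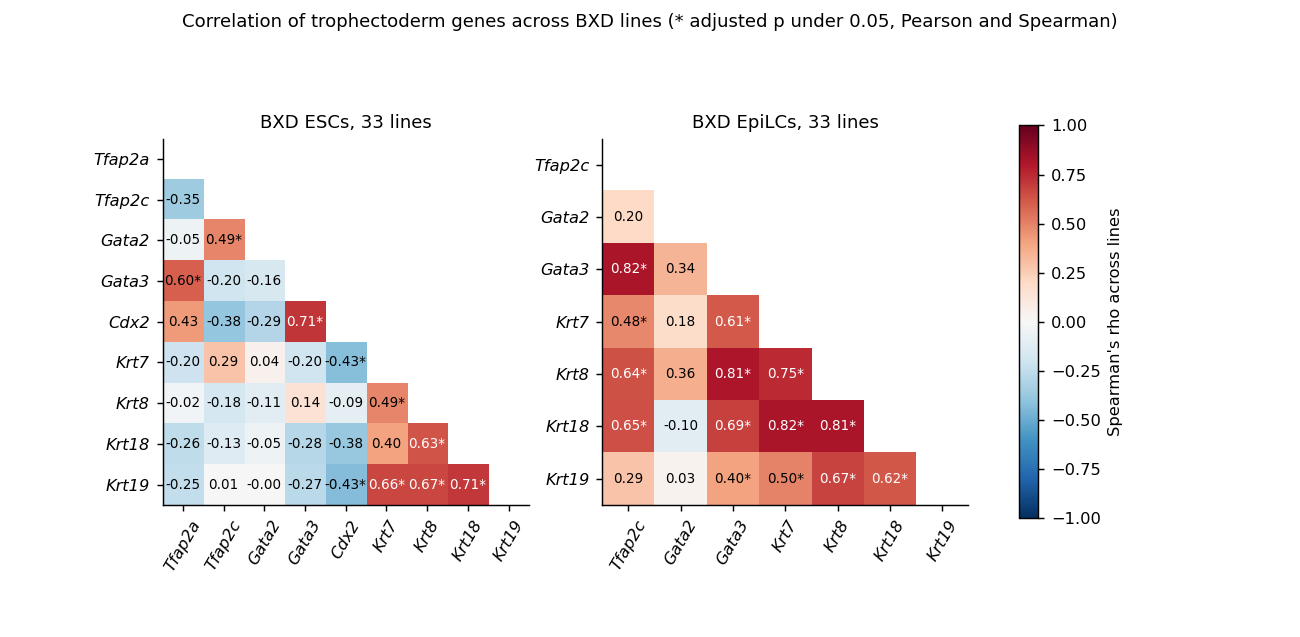
Spearman's rho of each pair of trophectoderm genes over 33 BXD lines in ESCs (left) and EpiLCs (right), with a star where both Pearson and Spearman passed an adjusted permutation p under 0.05. The 6 ESC keratin pairs have rho from 0.40 to 0.71 and 5 are starred, Gata3 and Cdx2 stand at 0.71, and in EpiLCs 14 of 21 pairs are starred.

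Levels in ESCs and EpiLCs of the same BXD lines were also compared. Of 7 members, Gata3 was the 1 that correlated between the states past the threshold (r = 0.55, rho = 0.49, adjusted permutation p = 0.0059 and 0.031, 33 lines), and r was 0.39 without the 2 farthest lines. The other 6 ranged between r = -0.38 for Tfap2c and 0.31 for Krt8.

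Open chromatin at several members went with their RNA across BXD ESC lines. With 1 promoter region per member and state, 7 of 16 relations passed, 5 of them in ESCs. The share over other genes and their promoters was not measured. Krt19 RNA and its promoter ATAC had r = 0.72 and rho = 0.73 (adjusted permutation p = 0.00016 for both, 33 lines). Without the 2 lines farthest from the median of the ATAC signal, r was 0.71. Tfap2c had r = 0.67 and rho = 0.77, Krt7 r = 0.64 and rho = 0.60, Krt8 r = 0.54 and rho = 0.52, and Cdx2 r = 0.53 and rho = 0.55. In EpiLCs Krt18 was positive (r = 0.42, rho = 0.41) and Gata3 negative (r = -0.50, rho = -0.45, adjusted permutation p = 0.0094 and 0.023).

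Of 21 ESC regions that differed between the parents, 11 went with their gene's RNA, all positively. The promoter regions of Krt7, Krt8, Krt19 and Cdx2 given above are among the 11, so these counts overlap with those for promoters. The share over regions near other genes was not measured. The Tfap2a 3′ region had r = 0.66 and rho = 0.62 (adjusted permutation p = 0.00016 and 0.00084, 33 lines), and r = 0.64 without the 2 farthest lines. The promoter region of Tfap2a, where the parents' difference did not pass the test, had r = 0.35 and rho = 0.34 and did not pass. The inner Krt7 region had r = 0.68 and rho = 0.65, with r = 0.55 without the 2 lines, and the region upstream of Tfap2c r = 0.69 and rho = 0.70. For the region past Gata2 (chr6:88209451-88210746), r was 0.38 with all lines and 0.19 without the 2 farthest, so that relation rests on them.

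The genes whose ESC level was most like a member's over the 33 lines were named by Spearman's rho out of 12728 genes, as a description. For Tfap2a they were Man2b2 (0.73), A930004D18Rik (0.72) and Gpr85 (0.71), and for Tfap2c BC037034 (0.80), Kit (0.72) and Actr8 (0.70). For Gata2 they were Zfp606 (0.69), Ppme1 (0.68) and Tnpo2 (0.65), for Gata3 Saa3 (0.88), Ptafr (0.88) and Atf5 (0.86), and for Cdx2 Grsf1 (0.89), Stx18 (0.83) and Txndc15 (0.83). For Krt7 they were 1110051M20Rik (0.77), Laptm4b (0.77) and Flot2 (0.76), and for Krt8 Stat5a (0.72), Fos (0.71) and the member Krt19 (0.67). For Krt18 they were Rab6b (0.83), Serinc2 (0.83) and Casp6 (0.79), and for Krt19 Igfbp4 (0.88), Cacna1h (0.84) and Adm (0.82). The values share library and depth.

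In EBs, 1 library of 20134 cells and 12 sample barcodes (hashes) gave a median of 35107.5 UMIs per cell (500 to 192674). A hash was given to 17552 cells (87.2%) where its count was at least 2 times that of the next. The hashes are named by the files alone: 7 begin with D, 3 with B and 2 with C (C1 and CB), the labels tie none of them to a strain, and they are called by these letters. Nothing says that hashes came from separate cultures, so p-values measure the spread between hashes. The D hashes are named D1, D2, D31, D32, D331, D332 and D333, and each counted as 1 unit in the test. As an alternative, the 5 with names that begin with D3 were summed. D hashes held 1569 to 1746 cells and B hashes 902 to 1234. In edgeR's quasi-likelihood test on sums per hash, 70.7% of 14877 genes were called (35.2% higher and 35.5% lower in D hashes), so a call in this comparison is common.

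The AP-2 factors were lower in D hashes. Tfap2c had a lowest, median and highest of 1.61, 2.13 and 2.56 UMIs per 1000000 over the D hashes, and 5.05, 5.44 and 6.17 over the B hashes (log2 difference -1.31, SE 0.12, edgeR adjusted p = 7.5e-07). Tfap2a was sparse, with 294 UMIs in all cells, and had 0.172, 0.249 and 0.360 UMIs per 1000000 over D hashes and 0.546, 0.566 and 0.712 over B hashes (-1.29, SE 0.24, adjusted p = 0.00036). Neither factor overlapped between D and B hashes, but the share of all genes that do not overlap between these hashes was not measured. The direction for Tfap2a differs from that in ESC RNA, though no hash is tied to a strain.

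The filament partners and Cdx2 were higher in D hashes, and none of the 3 overlapped, again with no share over all genes measured. Krt8 had 822, 1033 and 1163 UMIs per 1000000 over D hashes, and 715, 724 and 755 over B hashes (log2 difference 0.52, SE 0.08, edgeR adjusted p = 1.0e-04). Krt18 had 630, 715 and 802 over D hashes, and 549, 570 and 583 over B hashes (0.37, SE 0.05, adjusted p = 4.7e-05). Cdx2 had 120, 166 and 181 over D hashes, and 108, 115 and 119 over B hashes (0.51, SE 0.12, edgeR adjusted p = 0.0036), its lowest D hash, D31, lying next to the highest B hash. Gata2 overlapped, with 13.2, 18.1 and 23.3 over D hashes and 12.96, 13.6 and 14.6 over B hashes (0.42, SE 0.16, edgeR adjusted p = 0.033). Its adjusted p was 0.051 to 0.18 in each of 7 of 18 alternatives, among them cells thinned to 10000 UMIs and leaving out B1, B2, B3 or D31.

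Gata3, Krt19 and Krt7 did not pass. Gata3 had a median of 19.1 UMIs per 1000000 over D hashes and 18.4 over B hashes (0.06, SE 0.08, edgeR adjusted p = 0.52), and Krt19 64.1 and 64.9 (0.06, SE 0.05, adjusted p = 0.25). Krt7 had 1.22, 1.87 and 2.85 over D hashes and 1.05, 1.13 and 2.56 over B hashes (0.37, SE 0.29, adjusted p = 0.28). Hash B2 held the 2.56, and without it the edgeR difference was 0.86 (adjusted p = 0.014). In all, 6 of 9 members passed, 4 higher and 2 lower.

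**Figure D5:**
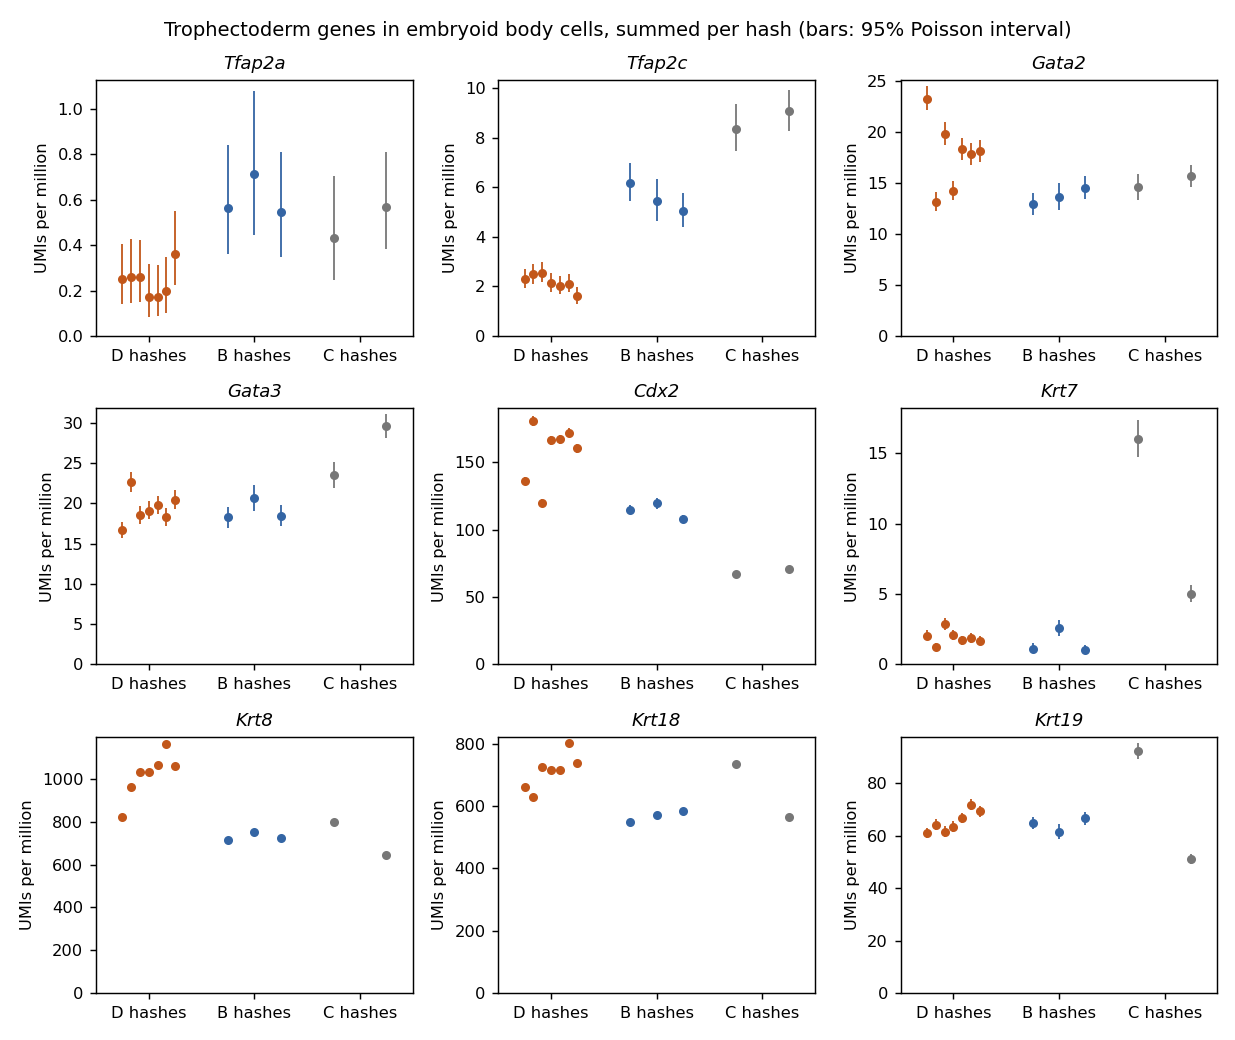
UMIs per 1000000 of each trophectoderm gene in embryoid body cells, summed per hash, with 95% Poisson intervals that cover counting error only; D, B and C are the first letters of the hash names. Tfap2a and Tfap2c are lower in every D hash than in every B hash, Krt8, Krt18 and Cdx2 higher, and Krt7 stands at 16.03 in C1 and 5.001 in CB.

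Cell makeup moved with the hashes as well. Cells with at least 4 of 5 definitive endoderm markers made up 1.93% to 10.1% of a D hash and 0.284% to 0.379% of a B hash. Cells with all 4 endothelial markers made up 2.96% to 7.14% of a D hash and 15.4% to 18.3% of a B hash, and cells with at least 4 of 5 blood markers 5.34% to 11.1% of a D hash and 1.13% to 2.27% of a B hash. Cells with at least 3 of 4 neural markers made up 0.0728% to 0.434% of a D hash and 1.90% to 2.73% of a B hash. Primitive endoderm marker cells made up 6.82% to 9.54% and 2.07% to 3.60%. Visceral endoderm, cardiac and feeder sets did not overlap between D and B hashes either, while posterior mesoderm and pluripotent sets did. These shares are over cells with at least 10000 UMIs, which left out 3281 of 20134 cells. The part of this makeup in the differences of the members was not tested.

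Among cells thinned to 10000 UMIs each (16853 cells), keratins followed endoderm markers. Krt8 had a UMI in 76.3% of all cells (83.7% of unthinned cells), in 100% of 609 cells with definitive endoderm markers and in 35.9% of 1543 endothelial-marker cells. Krt18 was alike, with 73.3% (80.3% unthinned), 100% and 31.6%. Krt19 was found in 20.9% of all cells (33.5% unthinned), in 60.3% of endoderm-marker cells and in 6.42% of endothelial-marker cells. Krt7 was found in 1.74% of all cells (3.47% unthinned), in 10.2% of endoderm-marker cells, with an exact binomial 95% interval of 7.89% to 12.9%, and in 0.713% of endothelial-marker cells. Median UMIs before thinning were 38770 in endoderm-marker cells and 34335 in endothelial-marker cells.

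The factors were placed otherwise. Cdx2 had a UMI in 44.03% of all cells (53.2% unthinned), in 51.3% of cells with none of the marker sets and in 11.3% of endothelial-marker cells. Gata2, which blood and endothelium use, was found in 11.96% of all cells (25.3% unthinned), in 32.5% of blood-marker cells and 21.4% of endothelial-marker cells, and in 4.60% of endoderm-marker cells. Gata3 was found in 16.6% of all cells (36.7% unthinned), in 20.7% of endoderm-marker cells and in 8.20% of blood-marker cells. Tfap2c was found in 3.16% (8.06% unthinned), against 1.56% of endothelial-marker cells. Tfap2a was found in 0.510% (1.21% unthinned), against 0.324% of endothelial-marker cells, with overlapping intervals of 0.408% to 0.630% and 0.105% to 0.755%, and is not told from background by that measure. In 134 cells with neural markers it was found in 5.22% (7 cells). Elf5, a defining trophoblast stem cell factor, had 14 UMIs in the whole library.

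Members were seen together in the same cells unequally. Krt18 had a UMI in 85.5% of cells with Krt8 and in 33.9% of cells without it. Krt19 was found in 66.3% of the 294 cells with Krt7 and in 20.1% of cells without it. Cdx2 was found in 50.9% of cells with Krt8 and 21.95% of cells without it, and in 25.6% of cells with Gata2 and 46.5% of cells without it. These shares describe cells of 1 pooled library thinned to equal depth and carry no test. Cells given to no hash were kept in them, and no doublets were taken out.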

How the data were processed

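The deposited tables hold RNA-seq of ESC and EpiLC lines, ATAC-seq of both states, P300, POU5F1 and TRIM28 ChIP-seq of ESCs, and 1 pooled EB library with 12 sample barcodes. The submitters' processing notes name mm10, MACS 1.4.2 and HISAT2 2.0.5, with Bowtie 1.0.0 and Cell Ranger also listed. No genome other than mm10 is listed for any strain, and the part of read mapping in the strain differences was not tested. For RNA, the counter, annotation and strand setting are not given in the sources read. Bulk values are normalized signal that the authors deposited per gene or region, with RNA tables of ESCs, EpiLCs and F1 lines scaled apart; RNA depth is therefore unknown. ATAC and TRIM28 values were whole multiples of 1 read per library (100% within a tolerance of 0.01), giving 16277662 to 24346475 reads in regions for ATAC and 5634327 to 17092029 for TRIM28. EB values are UMI counts and barcode counts as deposited by the authors.

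Bulk signal was tested with limma 3.58.1 (trend, robust; R 4.3.3) on log2(signal + 1), or + 0.1 for ATAC and TRIM28, over all features, with Benjamini-Hochberg adjusted p under 0.05 as the threshold; genes with a mean under 0.5 were left out. A fold on that scale understates the change of low genes. The test between states used 1 model over both RNA tables. Regions count as promoter within 1 kb of an annotated start. Values across BXD lines were correlated on the log2 scale with 100000 permutations (smallest p 1e-05), two-sided, adjusted within each family. The 2 farthest lines left out in a rerun were picked by 1 variable only: the first gene of a pair, the ESC level or the ATAC signal. EB counts were summed per hash and tested with edgeR 4.0.16 (quasi-likelihood); DESeq2 1.42.0 was an alternative. Shares have exact binomial 95% intervals, which cover counting error only. No doublet caller was run. Cells with 2 hashes near in count were left out of the sums and shares per hash. They were kept in the shares over all cells, over marker sets and over cells with another member. No cell barcode was shared between libraries. Python 3.11.15, numpy 2.4.6 and scipy 1.17.1 were used. The limma test between strains on RNA and ATAC signal, edgeR on ATAC reads and EB sums, and the permutation test were tried on simulated data. The fits between states, of F1 lines, of ChIP signal and with a block, and DESeq2, were not.

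The members and lists (other trophoblast genes, relatives of the members, epithelial junction genes, Hippo pathway and partner genes, and markers of feeders, pluripotency and endoderm) were chosen with earlier results of these data known. Named are all members, the 2 largest changes in each direction of a gene list, and the 3 genes most like each member. Alternatives were other pseudocounts, filters, scalings and tests, a block for the replicate number or cell line, and each line or hash left out. The marker counts that sort EB cells, the deposited hash counts divided by their median, the sum of the 5 hashes with names that begin with D3, edgeR on TRIM28 reads and the relations with every called region were chosen after seeing the data. Replicate numbers do not pair D2 and B6 lines (correlations of same-number deviations -0.39 to -0.07 in ESC RNA); ESC and EpiLC samples of 1 line do share that line. The sequence of 1 region is not reported here.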

Additional observations from a re-analysis of the deposited data

Results flagged for a closer look

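Hashes C1 and CB entered no test, and 3 members stood higher in both than in any D or B hash. Tfap2c was at 8.37 UMIs per 1000000 in C1 and 9.06 in CB, with 1.61 to 2.56 in D hashes and 5.05 to 6.17 in B hashes. Gata3 was at 23.5 in C1 and 29.5 in CB, with 16.7 to 22.6 in D hashes and 18.2 to 20.7 in B hashes. Krt7 was at 16.03 in C1 and 5.001 in CB, with 1.22 to 2.85 in D hashes and 1.05 to 2.56 in B hashes. Cdx2 stood lower in both, at 66.9 in C1 and 70.5 in CB, with 120 to 181 in D hashes and 108 to 119 in B hashes. The share of all genes outside the D and B hashes in this way was not measured. Cells with at least 4 of 7 feeder markers made up 9.99% of C1 and 5.89% of CB, over cells with at least 10000 UMIs. They made up 0.962% to 1.78% of D hashes and 2.16% to 3.03% of B hashes. Cardiac-marker cells were also more frequent in both C hashes, and the other marker sets did not stand outside the D and B hashes in both. The labels do not say what the C hashes are, and no difference or part of this makeup was tested.

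For 4 members the D2 minus B6 difference itself changed between EpiLCs and ESCs past the limma threshold. The change was 2.72 for Krt19, 1.83 for Gata2, 1.72 for Krt7 and 0.68 for Krt18 on the log2 scale, and that of Krt18 did not pass with the cell line as a block. Among 9 groups of 7 D hashes looked at for a hash far from the rest, 0 had one.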

How the results depend on the processing

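Under other pseudocounts, filters, scalings and tests, 84 of 84 counts over a comparison stayed within 1.5 times their value. Of 347 results on single genes, called correlations and members counted by direction, 337 were held to be the same. For genes that meant the same direction and side of the threshold. Correlations, rerun also without the 2 farthest lines, had to keep their sign and not shrink by more than 1.5 times, with no p computed again. Member counts had to stay within 1.5 times. Single lines mattered more. Leaving out 1 line at a time, 5 to 7 members were called in ESC RNA (8 with all lines; 5 without B41), 127 to 281 genes for F1 against the parental mean (418; 127 without F124 and 196 without F116), 5 to 9 member regions for TRIM28 (8; 5 without D29 or D55), 1 to 8 for P300 (4) and 1 to 6 for POU5F1 (3; 6 without B41, 1 without D29). Over all regions P300 gave 1222 to 11399 calls (4839; 1322 without B41, 1222 without B51, 11399 without D55) and POU5F1 1716 to 4497 (4656; 2275 without D29, 1716 without D55). The Gata3 change between states, uncalled at -0.06, was 0.20 with a pseudocount of 0.1, 0.14 without B51, 0.17 without D55 and -0.29 without D29. The uncalled F1 difference of Tfap2c was -0.072 without F116, against 0.012. The cause was not tested. In EB sums 5 to 6 members passed in every alternative run.

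With the replicate number as a block, 8 members and 3470 genes were called in ESC RNA (4772 without it), 3 and 6901 in EpiLC RNA, 17 member regions and 47836 regions in ESC ATAC (21 member regions without it), 33 and 57068 in EpiLC ATAC, 8 and 36930 for TRIM28, and 4 and 5397 for P300. With the cell line as a block, the change between states was called for 4 members and 4047 genes; calls other than those of Krt8 and Krt18 did not change. No block was possible for POU5F1, whose D2 libraries carry the same number. Depth is unknown for RNA, and Tfap2a and Krt7 are near the counting limit in EB cells.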
